A study of Mus musculus with 6 samples.

Results

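The genes examined here build, attach, trim and branch the sugar trees that are linked to asparagine residues of secreted and membrane proteins (N-glycans). They comprise 40 genes, taken as a pathway list of named members, and each was read from its single-symbol probe set, where a probe set is the group of probes that reports 1 transcript on the array. Every one of the 40 had exactly 1 such probe set among the 35556 of the table, and all 40 passed the filter on low signal. Alg6 and Manea were selected on their lower knockout signal in these same arrays, so their values are given as a description without a test. The other 38 belong by their place in the pathway, but the list as a whole was drawn up with results of these arrays known. The samples were left ventricles of male mice on a C57BL/6 background, 3 of a MURC knockout and 3 of the wild type. The missing protein, MURC or cavin-4 (gene Cavin4), belongs to caveolae, small pits of the muscle cell membrane. Knockout mice were 11, 11 and 13 weeks old, and wild-type mice 13, 13 and 12 weeks. The labels do not describe the allele or its deleted part, nor whether each sample is a separate animal, and p-values therefore cover only the spread among these 6 samples.

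An N-glycan is first assembled on dolichol, a long lipid of the endoplasmic reticulum membrane, by enzymes that add its sugars in a fixed order (the Alg enzymes, after Dpagt1 has placed the first). The oligosaccharyltransferase complex then moves the finished tree from the lipid onto a nascent protein. Glucosidases and mannosidases of the endoplasmic reticulum and Golgi trim it, and the Mgat enzymes of the Golgi start its branches. In heart muscle many ion channels, adhesion receptors and matrix proteins carry such glycans.

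Values are log2 signals as the authors deposited them, and differences are knockout minus wild type. The 6 arrays had median signals between 4.60 and 4.71, and Cavin4 itself measured 5.57 ± 0.18 in knockout hearts and 8.48 ± 0.36 in wild-type hearts (SD, n = 3), a difference of -2.91 with an adjusted p of 0.012 in limma. Every knockout array, at 5.38 to 5.74, lay below every wild-type array, at 8.07 to 8.75, while the adjusted p in limma was 0.0646, 0.118 and 0.0777 without knockout replicate 1, knockout replicate 3 or replicate 1 of the wild type, and 0.0754 with the replicate number as a block. Knockout replicate 2 stood apart in Myl7, a myosin light chain of atrial muscle, at 7.22, against 3.87 and 4.11 in the other knockout arrays and 3.61 to 4.06 in wild-type hearts. The mean of 3 atrial markers was 5.81 to 7.38 in knockout hearts and 5.69 to 6.10 in wild-type hearts. One of the 3, Sln, averaged 2.95 in knockout hearts and 2.76 in wild-type hearts, under the filter at 3.45, and was not tested. Without knockout replicate 2, 6 of the 38 members described next were lower at an unadjusted p under 0.05 in limma (7.28% of named genes). In that setting 16 lay apart below the wild type (20.8% of named genes). With all arrays the counts were 10 (8.97% of named genes) and 14 (14.1% of named genes). The summed level of 7 cardiomyocyte markers, as a mean log2 signal, was 12.46 to 12.47 in knockout hearts and 12.46 to 12.48 in wild-type hearts, with 2 of 7 lower in knockout hearts. That of 7 leukocyte markers was 6.25 to 6.42 in knockout hearts and 6.40 to 6.71 in wild-type hearts, with 6 of 7 lower in knockout hearts. For 5 smooth muscle and pericyte markers it was 7.73 to 7.80 in knockout hearts and 7.53 to 7.66 in wild-type hearts, with 1 of 5 lower in knockout hearts. For 6 fibroblast markers it was 7.71 to 7.87 in knockout hearts and 7.83 to 7.92 in wild-type hearts, with 5 of 6 lower in knockout hearts. For 5 endothelial markers it was 8.67 to 8.73 in knockout hearts and 8.52 to 8.81 in wild-type hearts, with 2 of 5 lower in knockout hearts. Of all named genes tested, 62.8% were lower in knockout hearts. The part that these cell types or knockout replicate 2 play in the results was not tested. In such bulk tissue, fewer cells of a type and less RNA per cell cannot be told apart.

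Most N-glycan genes had a small negative difference, and none of those not picked for their values passed the adjusted test over all probe sets. By role, leaving out Alg6 and Manea, the median difference was -0.11 in precursor assembly, -0.17 in the transferase complex, -0.04 in trimming and -0.06 in branching. Of the 38 genes not picked for their values, 30 were below the wild type and 8 above, with a median difference of -0.09. The median of the 15298 named genes tested was -0.04, with 62.8% of them below the wild type. At an unadjusted p under 0.05 in limma, 10 of the 38 (26.3%) were lower and 1 was higher, where 8.97% of named genes were called lower and 2.50% higher. In 14 of the 38 (36.8%) every knockout array lay below every wild-type array, as it did in 14.1% of named genes, and in 1 the knockout lay above throughout, as in 4.64%. None of the 38 passed an adjusted p of 0.05 over all 24898 probe sets, where 0.00402% of probe sets were called lower (Cavin4 alone) and 0% higher, and the smallest adjusted p among the 38 was 0.103. The sign of the difference was the same under all 16 alternatives for 30 of the 40 genes. It turned under at least 1 for Dolk, Alg1, Alg2, Rpn2, Ganab, Prkcsh, Man1a2, Mgat1, Mgat3 and Mgat5. Several alternatives, such as the filters and the replicate block, cannot alter the difference of a gene with 1 probe set. The counts depended on scaling and on single arrays. After quantile normalization 5 of the 38 were called lower (6.81% of named genes) and 7 lay apart below the wild type (11.4% of named genes), and the first count was also 5 when knockout replicate 3 (5.35% of named genes), knockout replicate 1 (6.76%) or replicate 2 of the wild-type hearts (7.81%) was left out. After median centring it was 5 as well (7.03% of named genes).

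**Figure D1:**
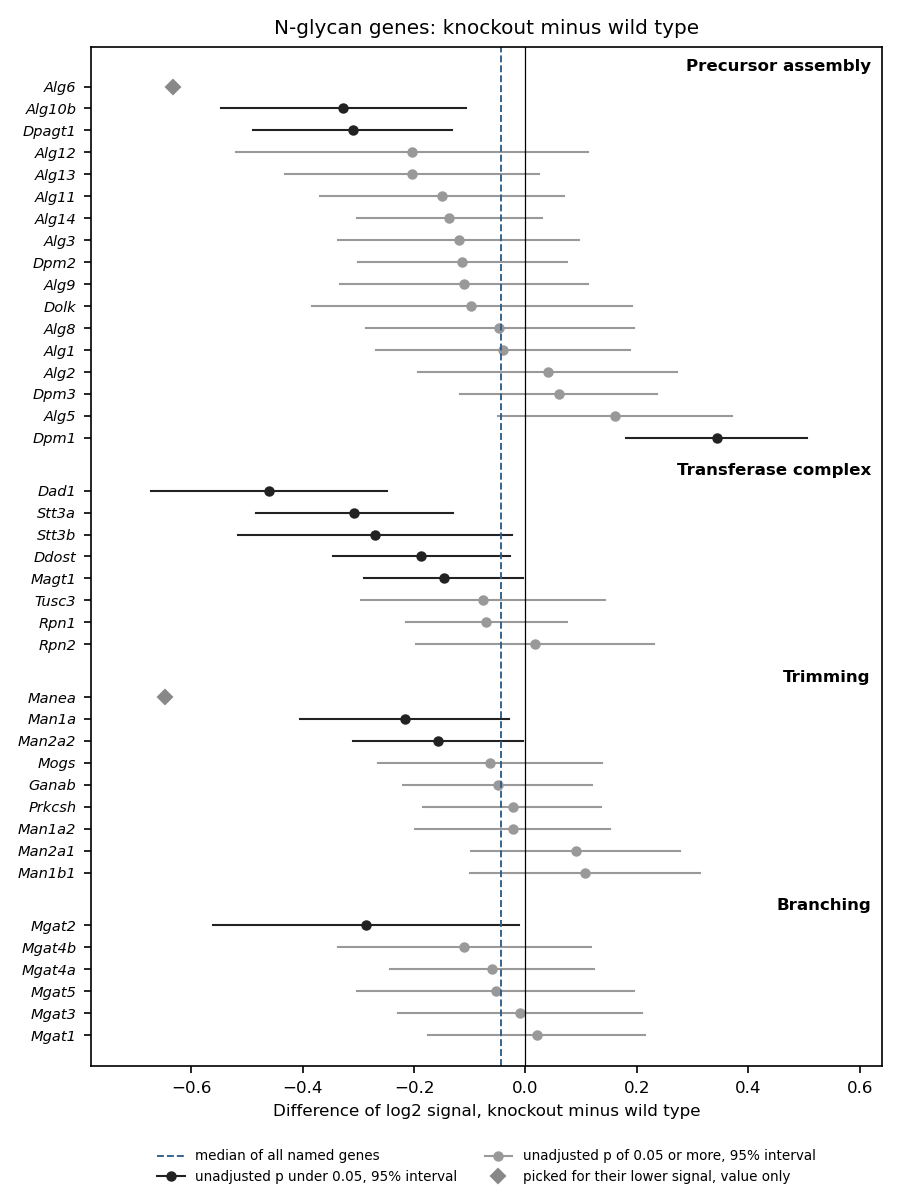
Difference of log2 signal (knockout minus wild type, horizontal axis) for the 40 N-glycan genes in their 4 roles. Points with bars give the difference and its 95% limma interval for 38 genes, grey diamonds the values of Alg6 and Manea, and the dashed line the median of named genes at -0.04. The genes run from -0.65 (Manea) to 0.34 (Dpm1), and 30 of the 38 tested points lie left of 0.

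Alg6 and Manea, picked for their lower signal on these arrays, had the largest differences on the list. Both were lower in knockout hearts, and their values and ranges are a description only. Alg6 encodes the enzyme that adds the first glucose to the lipid-linked tree, and its probe set (10506154) measured 4.29, 4.35 and 4.41 in knockout hearts and 4.99, 5.09 and 4.87 in wild-type hearts. The highest knockout array lay well below the lowest wild-type array. The Alg6 signal was under the median of each knockout array (4.60 to 4.65) and above that of each wild-type array (4.61 to 4.71). The difference was -0.63, a level 1.55-fold lower in knockout hearts, and it ran from -0.69 to -0.58 with each array left out in turn. Manea encodes a Golgi endomannosidase that removes glucosylated mannose from trees the glucosidases have not trimmed. Its probe set (10511881) measured 7.18, 7.06 and 6.82 in knockout hearts and 7.61, 7.71 and 7.68 in wild-type hearts. Here the knockout arrays were spread over a wider range, with replicate 3 lowest, and still lay apart from wild-type arrays. The difference was -0.65, or 1.57-fold lower in knockout hearts, and it ran from -0.73 to -0.55 with each array left out.

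Both genes lie on chromosome 4, which also carries Cavin4 and the members Alg2 and Ddost. Of the members only Alg2 lies within 10 Mb of Cavin4. Among the other pathway genes read further below, B4galt1 does too, and it was lower without overlap, by -0.33. Alg2, a mannosyltransferase of precursor assembly, measured 5.62, 5.77 and 5.82 in knockout hearts and 5.83, 5.67 and 5.59 in wild-type hearts. Its genotypes overlapped, with a difference of 0.04. Any part of the position near Cavin4 was not tested. The bases just upstream of the starts of Alg6 and Manea are shown because these genes differed most. They are the 250 bases before the RefSeq transcription start in GRCm38.p6, at chr4:99715380-99715629 on the + strand for Alg6 and at chr4:26346653-26346902 on the - strand for Manea, and capitals mark CCAAT and GGGCGG on either strand.
Alg6: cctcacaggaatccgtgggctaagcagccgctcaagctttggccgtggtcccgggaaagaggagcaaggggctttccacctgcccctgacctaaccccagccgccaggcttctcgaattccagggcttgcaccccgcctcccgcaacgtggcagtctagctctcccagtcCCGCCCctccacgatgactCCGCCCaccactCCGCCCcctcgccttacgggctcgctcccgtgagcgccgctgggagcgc
Manea: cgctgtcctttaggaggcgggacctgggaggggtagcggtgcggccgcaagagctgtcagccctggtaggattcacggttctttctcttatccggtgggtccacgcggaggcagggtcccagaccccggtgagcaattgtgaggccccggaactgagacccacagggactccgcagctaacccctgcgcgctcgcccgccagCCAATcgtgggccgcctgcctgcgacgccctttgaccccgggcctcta
The Alg6 window held 3 copies of GGGCGG, each on the opposite strand, and none of CCAAT. The Manea window held 1 CCAAT, starting 48 bases before the start, and none of GGGCGG. Their GC contents were 68.0% and 67.2%.

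Among the other 16 genes of precursor assembly and its mannose and glucose donors, 12 were below the wild type and 4 above. The share below was 75%, against 62.8% of named genes, and the median difference was -0.11. Dpagt1, which transfers the first sugar phosphate to dolichol, measured 5.99, 6.01 and 5.93 in knockout hearts and 6.30, 6.35 and 6.21 in wild-type hearts. The arrays of each genotype lay close together and apart from the other genotype, with a difference of -0.31 (SE 0.08, adjusted p = 0.152 in limma). Alg10b, which adds the last glucose, measured 6.79, 7.01 and 6.68 in knockout hearts and 7.12, 7.17 and 7.17 in wild-type hearts, a difference of -0.33 (SE 0.09, adjusted p = 0.205 in limma). Its knockout arrays were the more scattered, and replicate 2 came nearest the wild type. Alg8, which adds the glucose between those of Alg6 and Alg10b, measured 5.41, 5.58 and 5.37 in knockout hearts and 5.56, 5.36 and 5.58 in wild-type hearts. Its genotypes overlapped fully, and the 95% interval of its difference ran from -0.29 to 0.19.

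The second sugar is added by the paired subunits Alg13 and Alg14, and both lay below the wild type on every knockout array. Alg13 measured 4.71, 4.59 and 4.58 in knockout hearts and 4.81, 4.92 and 4.76 in wild-type hearts, a difference of -0.20 (adjusted p = 0.418 in limma). Alg14 measured 6.43, 6.43 and 6.53 in knockout hearts and 6.62, 6.63 and 6.55 in wild-type hearts, a difference of -0.14. Alg11, which adds the last mannoses on the cytosolic face, measured 5.51, 5.50 and 5.50 in knockout hearts and 5.65, 5.79 and 5.52 in wild-type hearts. Its wild-type replicate 3 sat just above the knockout arrays, so that the lack of overlap rested on the smallest step the values record. The mannosyltransferases Alg1, Alg3, Alg9 and Alg12 and the dolichol kinase Dolk differed by -0.04, -0.12, -0.11, -0.20 and -0.10, all with overlapping genotypes.

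Dpm1 went the other way. It encodes the catalytic subunit of dolichol-phosphate mannose synthase, which makes the mannose donor used inside the endoplasmic reticulum. It measured 8.22, 8.04 and 8.15 in knockout hearts and 7.85, 7.76 and 7.77 in wild-type hearts. Every knockout array was above every wild-type array, a difference of 0.34 (SE 0.07, adjusted p = 0.11 in limma) or 1.27-fold. The other subunits of the synthase did not lie apart. Dpm2 measured 6.70, 6.79 and 6.75 in knockout hearts and 6.98, 6.84 and 6.76 in wild-type hearts, a difference of -0.11, and Dpm3 differed by 0.06. Alg5, which makes the glucose donor dolichol-phosphate glucose, measured 5.89, 6.12 and 5.95 in knockout hearts and 5.79, 5.89 and 5.80 in wild-type hearts, a difference of 0.16 with replicates 1 of the knockout and 2 of the wild type at the same value. The upstream window of Dpm1, shown because it was the 1 member higher without overlap, lies at chr2:168230380-168230629 on the - strand of GRCm38.p6.
Dpm1: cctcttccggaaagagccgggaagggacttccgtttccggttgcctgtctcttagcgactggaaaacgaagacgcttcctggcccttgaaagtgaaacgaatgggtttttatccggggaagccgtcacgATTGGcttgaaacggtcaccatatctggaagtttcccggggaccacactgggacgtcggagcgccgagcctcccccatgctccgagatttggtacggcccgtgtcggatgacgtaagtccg
It held 1 CCAAT on the opposite strand, starting 121 bases before the start, and no GGGCGG.

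The oligosaccharyltransferase complex was measured through 8 subunits, of which 7 (87.5%, against 62.8% of named genes) were below the wild type and 6 (75.0%, against 14.1% of named genes) lay apart on every array, with a median difference of -0.17. After quantile normalization 3 of the 8 lay apart (37.5%, against 11.4% of named genes), with a median of -0.13 and 7 of 8 below the wild type (54.2% of named genes). Dad1, a small subunit first known as a defender against cell death, measured 9.90, 10.13 and 9.82 in knockout hearts and 10.51, 10.34 and 10.38 in wild-type hearts. The genotypes did not overlap, and the difference was -0.46 (SE 0.09, adjusted p = 0.103 in limma), the largest of the members not picked for their values. The 2 alternative catalytic subunits differed by like amounts. Stt3a measured 8.16, 8.28 and 8.03 in knockout hearts and 8.49, 8.47 and 8.43 in wild-type hearts, a difference of -0.31 (SE 0.08, adjusted p = 0.152 in limma). Stt3b measured 8.09, 8.26 and 7.85 in knockout hearts and 8.28, 8.33 and 8.40 in wild-type hearts, a difference of -0.27 (adjusted p = 0.325 in limma). In all 3 genes knockout replicate 3 was lowest and knockout replicate 2 came nearest the wild type, and for Stt3b that gap was 0.02.

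Ddost, a structural subunit, measured 8.04, 8.14 and 8.11 in knockout hearts and 8.37, 8.28 and 8.20 in wild-type hearts, a difference of -0.19. The oxidoreductase subunits Magt1 and Tusc3 serve complexes built on Stt3b. Magt1 measured 7.58, 7.61 and 7.63 in knockout hearts and 7.74, 7.81 and 7.71 in wild-type hearts, a difference of -0.15, without overlap. Tusc3 measured 6.02, 5.98 and 5.90 in knockout hearts and 6.19, 5.92 and 6.02 in wild-type hearts, with overlap and a difference of -0.08. The ribophorins Rpn1 and Rpn2, which are core subunits, differed little. Rpn1 measured 6.82, 6.84 and 6.81 in knockout hearts and 6.89, 6.90 and 6.89 in wild-type hearts, apart by only -0.07 because its replicates were tight, and Rpn2 differed by 0.02 with overlap. When the test was run over annotated probe sets alone, where 1.33% were called lower and 0.686% higher, Dad1 (adjusted p = 0.0215) passed as lower and Dpm1 (adjusted p = 0.0376) as higher, and the other 36 tested members did not pass. Over all settings the adjusted p ran from 0.0215 to 0.238 for Dad1 and from 0.0376 to 0.272 for Dpm1.

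**Figure D2:**
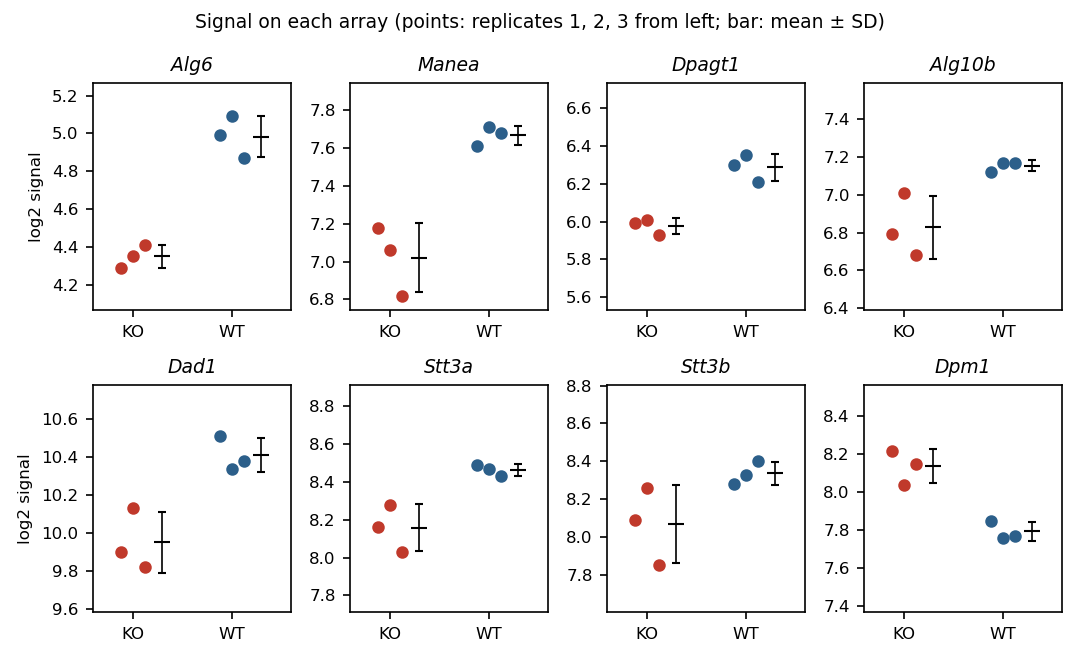
Log2 signal of 8 N-glycan genes on each array, with the 3 knockout arrays left of the 3 wild-type arrays in each panel and mean ± SD beside them. Every panel spans the same range of log2 units. The genotypes do not overlap in any of the 8 panels, Dpm1 is the gene whose knockout arrays lie above, and in Stt3b the gap is 0.02.

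The upstream windows of Dad1 and Stt3a are shown because they are the transferase subunits with the largest differences. They lie at chr14:54253930-54254179 and chr9:36767623-36767872, both on the - strand of GRCm38.p6, with the same letters in capitals.
Dad1: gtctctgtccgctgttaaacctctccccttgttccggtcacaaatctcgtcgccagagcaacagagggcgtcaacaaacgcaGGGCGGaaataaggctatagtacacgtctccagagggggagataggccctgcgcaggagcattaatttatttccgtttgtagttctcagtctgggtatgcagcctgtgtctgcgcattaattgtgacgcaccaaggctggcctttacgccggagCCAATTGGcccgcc
Stt3a: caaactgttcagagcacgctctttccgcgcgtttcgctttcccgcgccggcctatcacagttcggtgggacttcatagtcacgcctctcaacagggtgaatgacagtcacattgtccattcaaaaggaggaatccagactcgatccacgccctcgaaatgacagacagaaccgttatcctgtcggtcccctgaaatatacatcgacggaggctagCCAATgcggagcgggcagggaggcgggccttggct
Dad1 had CCAAT on both strands within a shared run that ends just before the start, and 1 GGGCGG further upstream. Stt3a had 1 CCAAT, starting 35 bases before the start. Upstream windows were found for 32 of the 40 members, not for Dpagt1, Alg2, Alg11, Tusc3, Man1a2, Man2a2, Mgat3 and Mgat4b. CCAAT, searched on both strands, was in 17 of the 32 (53.1%), against 34.5% of all 27025 genes of the RefSeq promoter table and 36.3% of its 17491 protein-coding genes. GGGCGG was in 22 (68.8%), against 32.9% of all genes and 42.7% of protein-coding genes. The endoplasmic reticulum stress response element, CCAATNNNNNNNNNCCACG, which contains a CCAAT, was in 1 of the 32 (Alg12) and in 0.122% of all genes. The core TGACGTGG of the unfolded protein response element was in 0 of the 32 and in 0.503% of all genes. The median GC content was 59.6% in the members and 55.2% in protein-coding genes.

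Of the other 8 trimming genes 6 (75%, against 62.8% of named genes) were below the wild type and 2 above. Their median difference was -0.04, where that of all named genes was also -0.04. The trimming median turned to 0.008 after quantile normalization. The glucosidases that remove the glucose residues did not separate the genotypes. Mogs (glucosidase I) and Ganab and Prkcsh (the subunits of glucosidase II) differed by -0.06, -0.05 and -0.02, and their 95% intervals lay between -0.27 and 0.14. Man1a, a Golgi mannosidase, measured 6.93, 6.82 and 6.72 in knockout hearts and 7.05, 6.97 and 7.10 in wild-type hearts, a difference of -0.22 without overlap (adjusted p = 0.307 in limma). Its paralogue Man1a2 measured 6.71, 6.56 and 6.65 in knockout hearts and 6.63, 6.63 and 6.73 in wild-type hearts, with overlap, and the sign of its difference of -0.02 changed with quantile normalization and with either of 2 arrays left out. Man2a2, 1 of 2 Golgi alpha-mannosidases II, measured 7.31, 7.37 and 7.25 in knockout hearts and 7.43, 7.51 and 7.46 in wild-type hearts, a difference of -0.16 without overlap. Its paralogue Man2a1 measured 7.33, 7.34 and 7.55 in knockout hearts and 7.33, 7.27 and 7.35 in wild-type hearts, and its difference was 0.09 with knockout replicate 3 standing highest. Man1b1, a mannosidase that trims slowly folding proteins, differed by 0.11 with overlap.

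Among the 6 branching genes Mgat2 alone lay apart (16.7%, against 14.1% of named genes apart below). Mgat2, which starts the second branch, measured 7.01, 7.07 and 6.87 in knockout hearts and 7.15, 7.52 and 7.14 in wild-type hearts. The difference of -0.29 (adjusted p = 0.347 in limma) leaned on wild-type replicate 2, and it was -0.16 without that array. Mgat4b measured 7.05, 7.03 and 6.83 in knockout hearts and 7.03, 7.23 and 6.98 in wild-type hearts, a difference of -0.11. Mgat4a, which like Mgat4b adds a further branch, measured 5.77, 5.75 and 5.79 in knockout hearts and 5.91, 5.81 and 5.77 in wild-type hearts, a difference of -0.06. Mgat1 (first branch), Mgat3 (bisecting sugar) and Mgat5 (a branch bound by galectins) differed by 0.02, -0.01 and -0.05, with overlapping genotypes and 95% intervals between -0.30 and 0.22.

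Differences between paralogues were tested on the difference of the 2 genes within each array, for 5 pairs, with an exact two-sided permutation test whose smallest possible p for 3 against 3 arrays is 0.10. The difference of Man1a minus that of Man1a2 was -0.19 and the difference of Man2a2 minus that of Man2a1 was -0.25, each at that smallest p of 0.10 (adjusted p = 0.25 over the 5 pairs, exact test). The differences of Stt3a and Stt3b were -0.04 apart, those of Tusc3 and Magt1 0.07 and those of Mgat4a and Mgat4b 0.05, each with an exact p of 0.70. The SD of the within-array difference was 0.08 in knockout hearts and 0.09 in wild-type hearts for Stt3a and Stt3b, and 0.14 in knockout hearts and 0.15 in wild-type hearts for Mgat4a and Mgat4b. With 3 arrays a genotype, no pair could have passed.

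Across arrays, the members were lowest on knockout replicate 3 and highest on the wild-type replicates 1 and 2. With each gene centred on its mean over the 6 arrays, the median of the 38 genes was -0.02, -0.02 and -0.08 on the knockout arrays and 0.07, 0.05 and 0.01 on the wild-type arrays. The same median over all named genes was -0.02, -0.01 and -0.03 in knockout hearts and 0.07, 0.003 and -0.005 in wild-type hearts. Wild-type replicate 1 was therefore high for genes at large, while replicate 2 was not. Knockout replicate 3 held the lowest value, ties included, of 19 of the 40 members, and wild-type replicate 2 the highest of 18. Manea is among the 19, and both Alg6 and Manea are among the 18. Such counts were not made over all named genes. The transferase subunits, 8 in number, had medians of -0.11, -0.03 and -0.10 in knockout hearts and 0.17, 0.11 and 0.03 in wild-type hearts. With age in weeks as a covariate, 6 of the 38 members were lower at the unadjusted level (8.16% of named genes), 1 was higher (2.71% of named genes), and the median difference of the 38 was -0.10.

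**Figure D3:**
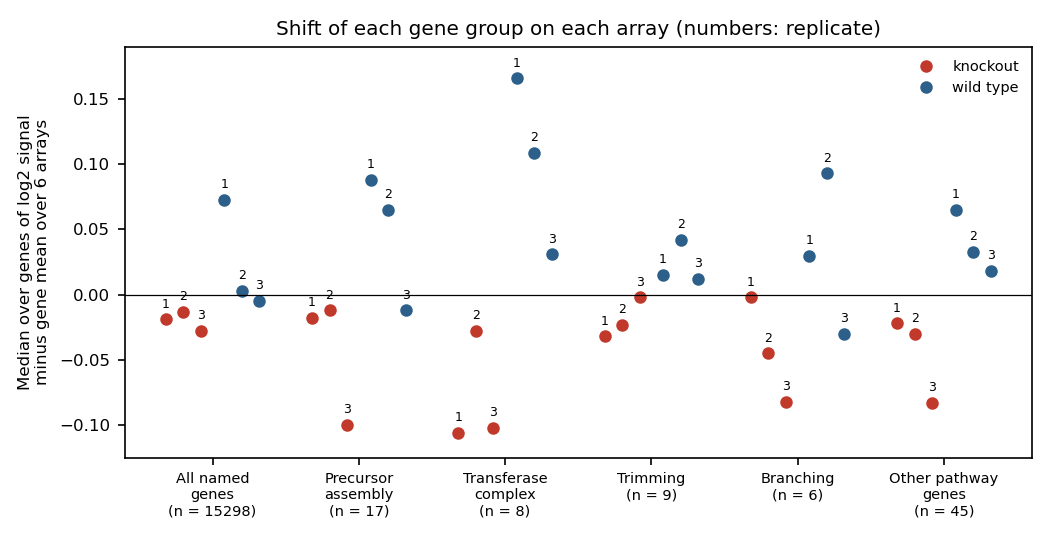
Median over genes of the log2 signal minus each gene's mean over the 6 arrays (vertical axis), for all named genes, the 4 roles and other genes of the pathway, with knockout arrays left of wild-type arrays and the replicate number above each point. The transferase subunits span -0.11 to 0.17, and all named genes -0.03 to 0.07 with wild-type replicate 1 highest. Assembly includes Alg6 and trimming includes Manea, the genes picked for their lower signal.

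Genes that act before, beside and after the members were read from 5 further lists, with 45 of 47 genes measured. Of these 32 were below the wild type (71.1%, against 62.8% of named genes) and 13 above, with a median difference of -0.08. At an unadjusted p under 0.05 in limma 9 were lower (20.0%, against 8.97% of named genes) and 2 higher (4.44%, against 2.5%). None passed over all probe sets. In the list of Golgi completion, 10 of 12 genes were below the wild type (83.3%, against 62.8% of named genes), 4 at the unadjusted level (33.3%, against 8.97%). Man1c1, a Golgi mannosidase related to Man1a, measured 7.55, 7.43 and 7.27 in knockout hearts and 7.72, 7.86 and 7.97 in wild-type hearts, a difference of -0.43 (adjusted p = 0.122 in limma). The galactosyltransferases B4galt1 and B4galt3 and the core fucosyltransferase Fut8 differed by -0.33, -0.27 and -0.25, each without overlap. In this list 41.7% of genes lay apart below the wild type, against 14.1% of named genes. The share was 38.5% in glycoprotein folding and disposal, 25% in the small transferase subunits and 18.2% in the sugar donors. It was 0% in the dolichol and flippase genes. Among the members it was 31.2% in assembly without Alg6 and 25% in trimming without Manea. B4galt1 lies within 10 Mb of Cavin4, and any part of that position was not tested.

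The sugar donor list held 6 genes below (54.5%, against 62.8% of named genes) and 5 above. Gmppa, a regulatory subunit in the making of GDP-mannose, measured 7.14, 7.11 and 7.08 in knockout hearts and 7.54, 7.39 and 7.41 in wild-type hearts, a difference of -0.34 (adjusted p = 0.111 in limma), and Ugp2, which makes UDP-glucose, differed by -0.20. Gnpnat1, an enzyme of UDP-N-acetylglucosamine synthesis, differed by -0.30 with overlap, and Mpi, which supplies mannose phosphate, by 0.22. Among genes of glycoprotein folding and disposal 10 of 13 were below (76.9%, against 62.8% of named genes), most of them by little. Lman1, a cargo receptor for glycoproteins leaving the endoplasmic reticulum, measured 8.28, 8.29 and 8.12 in knockout hearts and 8.48, 8.49 and 8.54 in wild-type hearts, a difference of -0.27 (adjusted p = 0.152 in limma). Edem1, which helps to send misfolded glycoproteins to degradation, measured 5.97, 5.99 and 5.98 in knockout hearts and 5.73, 5.76 and 5.52 in wild-type hearts, a difference of 0.31 (adjusted p = 0.21 in limma). The lectin chaperones Canx and Calr differed by -0.04 and -0.08. Of the 4 small transferase subunits, Ost4 differed by -0.33 without overlap, and Ostc, Krtcap2 and Tmem258 by -0.03, -0.04 and 0.08. The 5 dolichol and flippase genes overlapped between genotypes, with differences from -0.21 to 0.03. When limma was run over annotated probe sets alone, Gmppa (adjusted p = 0.0432) and Man1c1 (adjusted p = 0.037) passed as lower and none of the 45 as higher. Of all annotated probe sets 1.33% were called lower and 0.686% higher in that run.

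**Figure D4:**
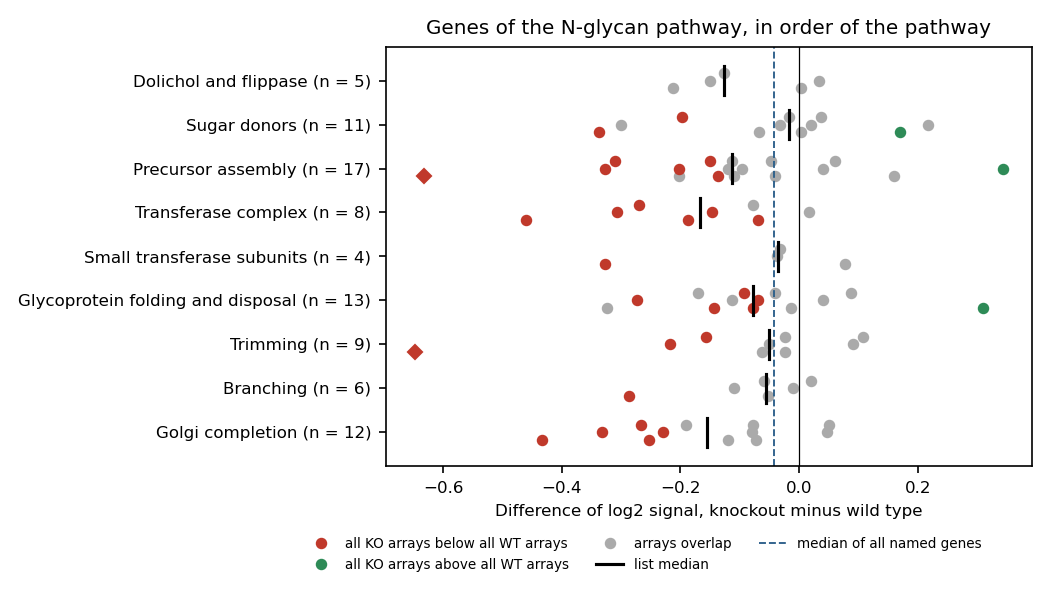
Difference of log2 signal (knockout minus wild type, horizontal axis) for each of the 40 members and 45 other pathway genes, in the order of the pathway from top to bottom, with diamonds for Alg6 and Manea. Red points lie below and green points above the wild type on every array, and black bars are list medians. The medians run from -0.17 in the transferase complex to -0.02 in the sugar donors. Those of assembly (-0.113) and trimming (-0.050) include Alg6 and Manea, which were picked for their lower signal.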

How the data were processed

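Total RNA of the left ventricle was measured on 6 Affymetrix arrays, 3 per genotype. The authors deposited these as 1 table of log2 values. MAS5 is named in the submitters' processing notes, with neither role nor version. How signals were summarized, corrected for background and scaled, and on which genome build, is information not given in the sources used here. The log2 scale was settled from the values, which ran from 0.46 to 13.72. They were used as deposited.

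Names came from the platform annotation, which gave 21789 probe sets 1 symbol, 1621 several and the other 12146 none. The 16798 tested probe sets with 1 symbol stand for 15298 named genes, each by its brightest probe set. A two-sided limma 3.58.1 fit in R 4.3.3 (lmFit, then trended eBayes) took knockout minus wild type over the 24898 probe sets whose mean was at or above the 30th percentile (3.45), with Benjamini-Hochberg adjustment and a threshold of 0.05. The fit was tested on simulated data. The number of arrays limits the precision. The alternatives were quantile normalization, median centring, no filter, a filter at the 50th percentile, annotated probe sets only, a gene's mean over probe sets, the replicate number as a block, age as a covariate, array weights, no trend, and each array left out.

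The members and lists were chosen with earlier results of these data known. Described by array are Alg6, Manea, each member with an unadjusted p under 0.05 or without overlap, at least the 3 members per role with the smallest p, and paralogue pairs. Alg2, Alg5, Alg8 and Dpm2 were added to these after their values were seen, for their place in the pathway. Of the other pathway genes, up to 4 per list with the smallest p are named, and Canx and Calr were added. Promoter windows are RefSeq's, build GRCm38.p6, at the first listed start of a gene.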

Additional observations from a re-analysis of the deposited data

How the results depend on the processing

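Alg6 and Manea kept their sign under all 16 alternatives, from -0.69 to -0.56 for Alg6 and from -0.77 to -0.55 for Manea. So did Dad1, Stt3a, Dpagt1, Alg10b and Dpm1. For Alg6 and Manea, which were picked on these arrays, this is a description only. The filter settings, annotated probe sets only, the mean over probe sets, the replicate block and no trend left these differences unchanged. They could not turn the sign of a gene with 1 probe set. The number of probe sets past the adjusted threshold, 1 as reported, was 130 with quantile normalization, 105 with median centring, 48 with the stricter filter, 361 among annotated probe sets, 34 with age as a covariate, 126 with array weights and 0 with the replicate block, and it ran from 0 to 11 with each array left out. Of the 38 members other than Alg6 and Manea, 10 were lower at the unadjusted level (8.97% of named genes). They numbered 5 after either quantile normalization (6.81% of named genes) or median centring (7.03%), and 6 with age as a covariate (8.16%). Without the intensity trend they numbered 6, and with each array left out 5 to 7 (5.35% to 9.14% of named genes). The share of named genes was not computed without the trend. Over all 24898 probe sets 2008 were called lower without the trend, against 2245 in the main fit. Members of the 38 apart below the wild type numbered 14 (14.1% of named genes), but 7 after quantile normalization (11.4%) and 9 after median centring (11.4%). With each array left out they numbered 14 to 18, where the share of named genes was 17.2% to 24.3%. Those apart above the wild type numbered 1 (4.64% of named genes), but 3 with quantile normalization (8.08%) and 2 with median centring (6.41%). With each array left out they numbered 1 to 3 (7.18% to 11.4%). The median difference of the 38 was -0.09, with -0.054 after quantile normalization, and it ran from -0.114 to -0.062 with each array left out. Other pathway genes lower at the unadjusted level numbered 9 (8.97% of named genes). With each array left out they numbered 4 to 10 (5.35% to 9.14%), the fewest without knockout replicate 3 (5.35%). They numbered 12 with age as a covariate (8.16%) and 11 over annotated probe sets alone (11% of annotated probe sets). Other pathway genes higher numbered 2 (2.5% of named genes), but 3 after quantile normalization (4.63%). They numbered 1 with the replicate block (2.21%) and with age as a covariate (2.71%). They also numbered 1 without the intensity trend, and 1 to 2 with each array left out (1.58% to 3.82% of named genes). Over all 24898 probe sets 1078 were called higher without the trend, against 1172 in the main fit. The median of the trimming genes other than Manea (-0.037) reversed to 0.008 after quantile normalization. Man1a2 (-0.023) reversed to 0.013 with quantile normalization, and it ran from -0.058 to 0.017 with each array left out, reversing when knockout replicate 2 or replicate 3 of the wild type was left out. Cavin4 differed by -2.91 with an adjusted p of 0.0754 under the replicate block, and by -3.12 to -2.78 with each array left out, losing its call when replicate 1 or 3 of the knockout or replicate 1 of the wild type was left out (adjusted p of 0.0646, 0.118 and 0.0777). The labels do not say whether the replicate numbers pair the samples, and the main fit did not pair them. Same-numbered arrays showed no shared deviation, with correlations of -0.06, 0.02 and -0.06, which cannot settle whether they were paired. With the number as a block, 8 of the 38 were lower at the unadjusted level (7.99% of named genes) and 1 higher (2.21%). The causes of these changes were not tested. Signal over background was not analysed here.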
